A study of Mus musculus with 672 samples.

Results

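The step described here is the change from lymphoid-primed multipotent progenitor (LMPP) to all-lymphoid progenitor (ALP) in the bone marrow of mice that lack Mbd3, a subunit of the chromatin-remodelling and deacetylase complex NuRD. Single cells were sorted from the femurs and tibiae of 2 null mice (Mbd3 del/del, numbers 18217 and 18219) and 2 control mice (Mbd3 flox/flox, numbers 18218 and 18220), all aged 7 weeks and of C57BL6/129Ola strain. Both gates took lineage-negative cells positive for Sca-1 and c-Kit, high for Flt3 and without B220. LMPPs had no surface IL-7 receptor, and ALPs had the receptor but no surface Ly6D. The labels name no Cre transgene or other driver of the deletion. Cells were chosen by the population, genotype and mouse in their titles and by limits on counts, genes, mitochondrial reads and spike-ins. Of 264 null cells sorted from both gates, 213 were kept, out of 561 kept cells in the whole series. Kept LMPPs numbered 45 of 48 in mouse 18217 and 47 of 48 in mouse 18219. Kept ALPs numbered 79 of 84 and 42 of 84 in the same order, so the second mouse lost many more ALP wells. In control mice 208 of 264 cells were kept, with a similar loss in ALPs of mouse 18220 (40 of 84 kept).

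LMPPs are early marrow progenitors that can still give rise to lymphoid and myeloid cells. Their ALP offspring respond to IL-7, the stromal cytokine that B cell progenitors depend on, and from them arise the first cells committed to the B lineage. In that sequence the E2A and EBF1 transcription factors switch on B cell genes, the RAG recombinase begins to cut the immunoglobulin loci, and PAX5 later fixes B cell identity, while stem cell genes are shut down.

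Counts of kept cells were summed into 1 library per mouse and population, and each gene was compared between the 2 ALP and the 2 LMPP libraries of null mice. Null LMPP libraries held 72008270 and 58677406 gene counts, and null ALP libraries 101521329 and 62979255. The median kept cell of these libraries had between 1004760 and 1285444 nuclear gene counts. Levels below are in CPM, reads of a gene scaled to library size, with the value of mouse 18217 first and that of mouse 18219 second, or 18218 and then 18220 for control mice. A gene is said to have risen or fallen when its adjusted p in edgeR's quasi-likelihood test (Benjamini-Hochberg over all genes tested) was under 0.05.

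Mbd3 itself checks the genotype. Its level was 0.189 and 24.7 CPM in null LMPPs and 2.88 and 0.352 CPM in null ALPs, against 48.1 to 137 CPM in the control libraries of both populations. A single LMPP of mouse 18219 held 98.3% of the Mbd3 reads of its library, and a single ALP of mouse 18217 held 62.4% of those of its own. With reads at equal depth, Mbd3 was detected in 0% to 7.59% of the cells of a null library and in 36.2% to 68.9% of those of a control library. The labels do not say which part of the gene is missing.

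From LMPP to ALP, null cells gained transcripts of the early B cell programme and lost transcripts of stem and multipotent cells. Of 19903 genes tested, 31 rose (0.156%) and 11 fell (0.0553%). Among the genes that rose were the transcription factors Ebf1 and Pax5 and the recombination genes Rag1, Dntt and Xrcc6. Blnk, an adaptor of the pre-B cell receptor, rose too. So did the receptor gene Il7r, whose surface product separated the gates. The genes that fell included the stem cell factors Hlf and Lmo2, the surface receptor gene Procr and the carbonic anhydrase gene Car2. In all 42 called genes the ALP and LMPP libraries did not overlap, a pattern found in 37.8% of all genes tested. The median log2 change over all genes was 0.0, with 9985 genes higher and 9815 lower. These calls rest on both null mice. Leaving out mouse 18217 or mouse 18219 left 0 genes called in either direction. Without control mouse 18218 or control mouse 18220, 7 rose and 0 fell, and the same 7 and 0 were counted without the ALP libraries of mice 18219 and 18220. LMPPs and ALPs come from the same mice, and with the mouse as a block 17 genes rose and 5 fell. Of the 42 called genes, 18 were called in that fit, and the other 24 had block adjusted p-values between 0.0516 and 0.12. All 42 kept their direction in every fit named here.

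**Figure D1:**
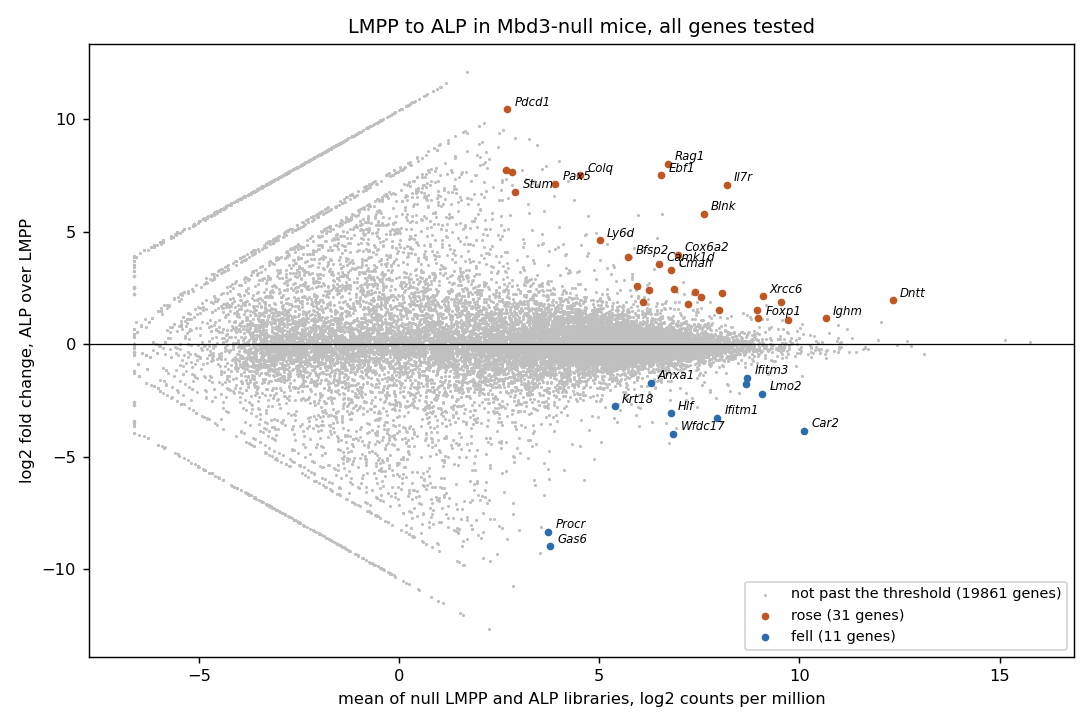
Each dot is 1 of 19903 genes, with the mean level over null LMPP and ALP libraries on the horizontal axis (log2 CPM) and the log2 fold change of ALP over LMPP in null mice on the vertical axis. The 31 genes that rose are orange and the 11 that fell are blue; low genes spread widely around 0, and most called genes lie at moderate to high levels.

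Ebf1, the transcription factor that specifies the B lineage (chr11:44617317-45008091, GRCm38), had the smallest p. Its level was 0.983 and 1.05 CPM in null LMPPs and 154 and 217 CPM in null ALPs, a log2 fold change of 7.51 ± 0.32 (SE, n = 2 mice in each group, adjusted p = 8.81e-05 in edgeR). Each ALP library was far above each LMPP library. A summed library cannot tell more cells with a transcript from more transcript per cell, so the share of cells with a read is given as well. At equal depth, with each cell thinned to 50000 nuclear gene counts, Ebf1 was read in 4.44% and 10.6% of null LMPPs and in 63.3% and 71.4% of null ALPs. The rise was thus spread over most ALPs, and the cell with the most Ebf1 reads held 9.73% and 13.8% of the library's. Gm12158, a gene on the opposite strand within Ebf1, also rose (log2 fold change 7.72 ± 0.94), and without a stated strand setting its reads cannot be told apart from those of Ebf1.

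Rag1 encodes the catalytic subunit of the recombinase that cuts antigen receptor genes. It stood at 0.727 and 0.894 CPM in null LMPPs and at 176 and 243 CPM in null ALPs (log2 fold change 8.01 ± 0.58, adjusted p = 0.00174 in edgeR). Reads of Rag1 were found in 4.44% and 4.26% of LMPPs and in 74.7% and 71.4% of ALPs. In single ALPs its reads kept company with those of Ebf1: 45 of 50 Ebf1-positive cells of mouse 18217 and 26 of 30 of mouse 18219 had Rag1 reads, against 14 of 29 and 4 of 12 cells without Ebf1 reads. Reads of Cd79a and Pax5 were also more frequent in Ebf1-positive cells of both mice. Il7r was read in nearly all ALPs, 50 of 50 and 29 of 30 with Ebf1 reads and 26 of 29 and 11 of 12 without. For Blnk, Hlf and Car2 the direction differed between the mice. Blnk was read in 64.0% of Ebf1-positive and 72.4% of other cells of mouse 18217, and in 90.0% and 50.0% of mouse 18219. These cell counts describe 2 libraries and carry no test.

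Rag1 and several other called genes moved together, so the 250 bases before their start sites were read for short motifs. RefSeq (GRCm38.p6) gave such windows for 33 of the 42 called genes, 24 that rose and 9 that fell. CAGGTG, an E-box of the kind that E2A proteins bind, was searched on both strands (CACCTG on the other). It was present in 10 of 32 windows of risen genes (31.2%), in 2 of 9 windows of fallen genes (22.2%) and in 17.2% of all 32841 windows. The EBF-type palindrome (TCCC and GGGA with 2 bases between them) was in 0 of 32 and 0 of 9 windows, and in 0.78% of all. TGTGGT, a RUNX-type core, was in 5 of 32 (15.6%) and 2 of 9 (22.2%), and in 14% of all. For Camk1d, the window at chr2:5676047-5676296 held no CAGGTG match and is not shown. The windows below, of Rag1 and Camk1d (risen) and Hlf (fallen), are shown because each holds CAGGTG or its complement, marked in capitals. All 3 lie on the minus strand and are written 5′ to 3′ along the gene, at chr2:101649533-101649782, chr2:5714763-5715012 and chr11:90390918-90391167.
Rag1: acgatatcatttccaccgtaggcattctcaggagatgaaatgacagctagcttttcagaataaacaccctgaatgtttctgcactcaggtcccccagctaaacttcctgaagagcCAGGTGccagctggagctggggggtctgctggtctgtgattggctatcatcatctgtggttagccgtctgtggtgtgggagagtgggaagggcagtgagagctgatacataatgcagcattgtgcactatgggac
Camk1d: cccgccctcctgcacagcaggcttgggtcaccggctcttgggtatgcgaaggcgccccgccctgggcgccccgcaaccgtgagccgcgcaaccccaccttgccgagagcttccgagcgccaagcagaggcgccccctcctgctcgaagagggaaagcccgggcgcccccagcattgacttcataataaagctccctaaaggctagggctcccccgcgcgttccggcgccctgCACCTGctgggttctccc
Hlf: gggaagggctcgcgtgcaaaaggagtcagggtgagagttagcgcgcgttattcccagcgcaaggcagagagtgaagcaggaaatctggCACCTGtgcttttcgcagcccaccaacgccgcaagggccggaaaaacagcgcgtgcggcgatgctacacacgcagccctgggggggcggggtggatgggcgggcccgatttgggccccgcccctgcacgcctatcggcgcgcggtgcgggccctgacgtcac
A match is a description of the letters and does not show binding.

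Il7r, which encodes the alpha chain of the IL-7 receptor, rose from 3.72 and 4.73 CPM to 608 and 546 CPM (log2 fold change 7.09 ± 0.38, adjusted p = 0.000182 in edgeR). Its share of positive cells went from 20.0% and 12.8% to 96.2% and 95.2%. The surface receptor separated the gates, so this rise checks the sort and is not a finding. The other gate genes that both gates share moved less. Flt3 was read at 750 and 809 CPM in LMPPs and 804 and 817 CPM in ALPs, a log2 difference of 0.06. Kit, the stem cell factor receptor, was at 364 and 549 CPM and then at 128 and 136 CPM, with an adjusted p of 0.152. Ly6a, which encodes Sca-1, overlapped between the populations, at 259 and 367 CPM and at 89.4 and 403 CPM. Ly6d rose to 36.2 and 87.5 CPM from 2.96 and 2.05 CPM (log2 fold change 4.62 ± 0.67, adjusted p = 0.0465 in edgeR), although ALPs were sorted without the surface protein. In the ALPs of mouse 18219 a single cell held 56.9% of the Ly6d reads, and with the mouse as a block its adjusted p was 0.109.

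Pax5, the factor that commits cells to the B lineage, was at 0.242 and 0.172 CPM in null LMPPs and at 30.9 and 28.0 CPM in null ALPs (log2 fold change 7.14 ± 0.90, adjusted p = 0.0209 in edgeR, 0.0718 with the block). Few cells carried it, with reads in 10.1% and 23.8% of ALPs and in 0% and 4.26% of LMPPs, and the top cell of each ALP library held 41.6% and 44.1% of the Pax5 reads. Blnk rose from 10.0 and 3.8 CPM to 253 and 514 CPM (log2 fold change 5.79 ± 0.58, adjusted p = 0.007 in edgeR, 0.0569 with the block), and its reads were found in 67.1% and 78.6% of ALPs. Dntt, the template-free polymerase of antigen receptor joints, was already abundant in LMPPs. It went from 1900 and 2317 CPM to 7830 and 8601 CPM (log2 fold change 1.96 ± 0.27), with reads in nearly every cell of both populations. Xrcc6, which encodes the Ku70 end-joining protein, rose from 213 and 188 CPM to 812 and 947 CPM (log2 fold change 2.13 ± 0.24, block adjusted p = 0.0516). Ighm, the constant region of the mu heavy chain, rose from 976 and 1030 CPM to 2220 and 2255 CPM (log2 fold change 1.16 ± 0.13, block adjusted p = 0.0718). The forkhead factor gene Foxp1, needed in early B cell development, rose from 326 and 291 CPM to 697 and 682 CPM (block adjusted p = 0.0824).

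The early B lineage list held 30 genes, of which 28 were tested. Of these, 26 were higher and 2 lower in null ALPs, 9 rose and 0 fell, and the median log2 change was 2.77, against 0.0 over all genes. The 9 were Ebf1, Pax5, Il7r, Rag1, Dntt, Blnk, Ly6d, Ighm and the actin-binding calponin gene Cnn3. Il7r counts in these values although its surface product separated the gates, so its rise is no support for the list. Members without a call included Cd79a, a signalling chain of the B cell receptor, at 1.02 and 5.76 CPM in LMPPs and 90.8 and 280 CPM in ALPs (adjusted p = 0.193). Cd79a was read in 41.8% and 64.3% of null ALPs and in 4.44% and 14.9% of null LMPPs. The recombinase partner Rag2 went from 65.6 and 31.6 CPM to 207 and 253 CPM (adjusted p = 0.123), and Bach2, a repressor active in B cells, from 3.14 and 7.7 CPM to 41.6 and 64.7 CPM (adjusted p = 0.104). Vpreb3 was at 0.566 and 0.877 CPM and then at 6.62 and 26.4 CPM. Other members without a call moved little or were lower. Log2 changes were 0.21 for Cd79b and 0.46 for Cd24a, and the 2 lower members were Erg (-0.42) and Ciita (-0.82). Cd79b was read in 49.4% and 66.7% of null ALPs and in 57.8% and 59.6% of null LMPPs. Counted cell by cell at equal depth, a null LMPP had reads for a mean of 7.42 and 7.17 of the 29 listed genes in the table. A null ALP had reads for 12.9 and 14.0 of them. These means include Il7r, read in 96.2% and 95.2% of null ALPs and in 20.0% and 12.8% of null LMPPs. No mean was computed without it. The antigen receptor recombination list had 11 of 14 tested members higher, 3 of which rose (Rag1, Dntt, Xrcc6), with a median of 0.76.

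**Figure D2:**
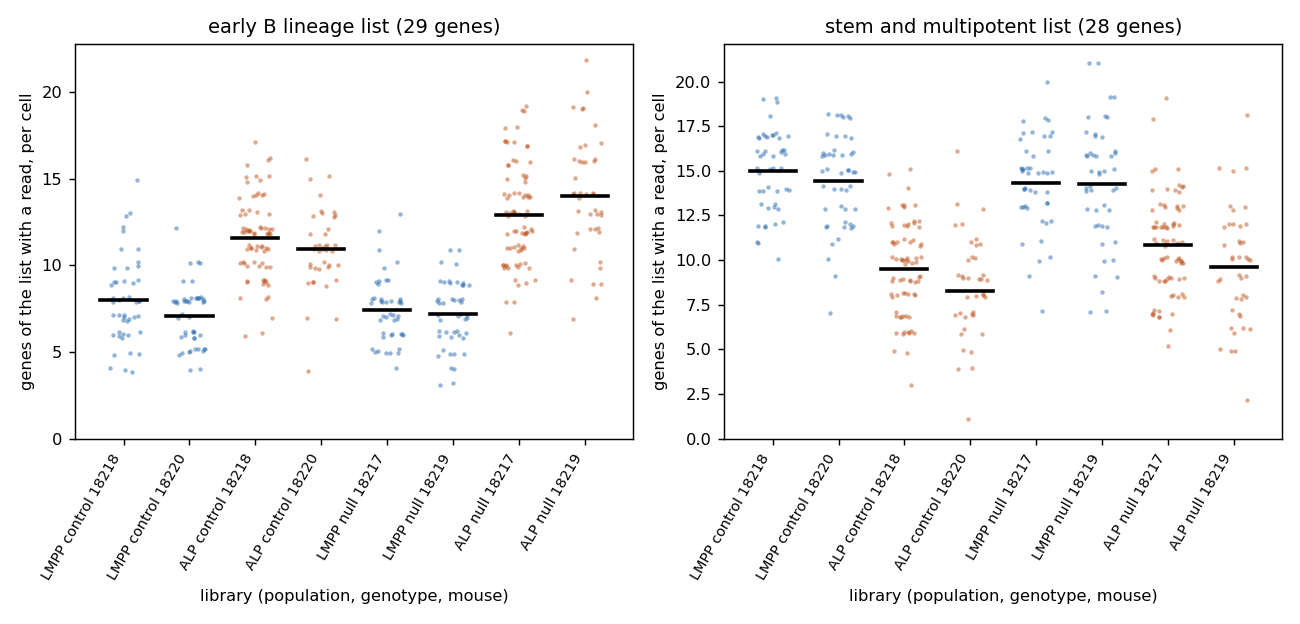
Each dot is 1 cell, placed by the number of genes of a list with at least 1 read after thinning to equal depth, and bars are means per library. In the early B lineage list (left) the null ALP means of 12.9 and 14.0 lie above those of null LMPPs, 7.42 and 7.17, and in the stem and multipotent list (right) they lie below. The early B lineage list includes Il7r, whose surface product separated the gates. The stem and multipotent list includes Kit and Ly6a, whose surface products both gates selected.

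Genes best known from other tissues and roles rose too, Colq by as much as Ebf1 and the others by less. Colq, the collagen-like tail of acetylcholinesterase, went from 0.256 and 0.241 CPM to 44.5 and 46.0 CPM (log2 fold change 7.50 ± 0.35, adjusted p = 8.97e-05 in edgeR), with reads in 24.1% and 26.2% of ALPs. Cox6a2, a cytochrome c oxidase subunit known from muscle and plasmacytoid dendritic cells, rose from 19.4 and 10.4 CPM to 187 and 279 CPM (log2 fold change 3.97 ± 0.52, block adjusted p = 0.0619). The calmodulin-dependent kinase gene Camk1d rose from 11.9 and 16.3 CPM to 190 and 142 CPM (log2 fold change 3.56 ± 0.34). As for every called gene, the ALP and LMPP libraries did not overlap for any gene of this paragraph. Bfsp2, which encodes a lens filament protein, went from 7.93 and 5.66 CPM to 87.1 and 111 CPM (log2 fold change 3.86 ± 0.34). Cmah, the hydroxylase that makes N-glycolylneuraminic acid, went from 21.2 and 20.1 CPM to 194 and 207 CPM (log2 fold change 3.28 ± 0.27). Its reads were found in 87.3% and 97.6% of ALPs against 26.7% and 19.1% of LMPPs. Rpgrip1, a gene of the photoreceptor cilium, was at 17.3 and 17.7 CPM and then at 124 and 86.3 CPM (block adjusted p = 0.102).

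Several of the remaining risen genes encode surface proteins. Cd93, which marks early B cell progenitors, rose from 258 and 250 CPM to 714 and 751 CPM (log2 fold change 1.53 ± 0.13). Clec12a, an inhibitory lectin receptor, rose from 104 and 81.1 CPM to 390 and 496 CPM, and Tfrc, the transferrin receptor, from 34.7 and 37.2 CPM to 172 and 222 CPM. Itga4, the alpha chain of VLA-4 by which progenitors hold on to stroma, rose from 64.2 and 67.8 CPM to 233 and 230 CPM (block adjusted p = 0.0619). In the homing and adhesion list Itga4 was the 1 member of 20 that rose, 9 were higher and 11 lower, and the median was -0.14. The adhesion receptor gene Adgrg3 rose by the smallest amount of the called genes, 1.09 on the log2 scale (block adjusted p = 0.0591). The other risen genes were Cnn3 and Tpm4 (actin-binding proteins), Tifa (an adaptor of NF-kB signalling), Crip1, Tedc1, Tmem229b, Stum, Pdcd1 and Gm11579. Block adjusted p-values were 0.0569 for Tifa and Gm11579, 0.0718 for Crip1 and Gm12158, 0.11 for Tedc1 and Tmem229b, and 0.12 for Pdcd1. Pdcd1, which encodes the inhibitory receptor PD-1, had 0 and 1 reads in the LMPP libraries and 1247 and 888 reads in the ALP libraries. A single ALP held over 50% of its reads in each mouse (51.1% and 51.4%), and Stum had 55.4% of its reads in 1 ALP of mouse 18219.

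**Figure D3:**
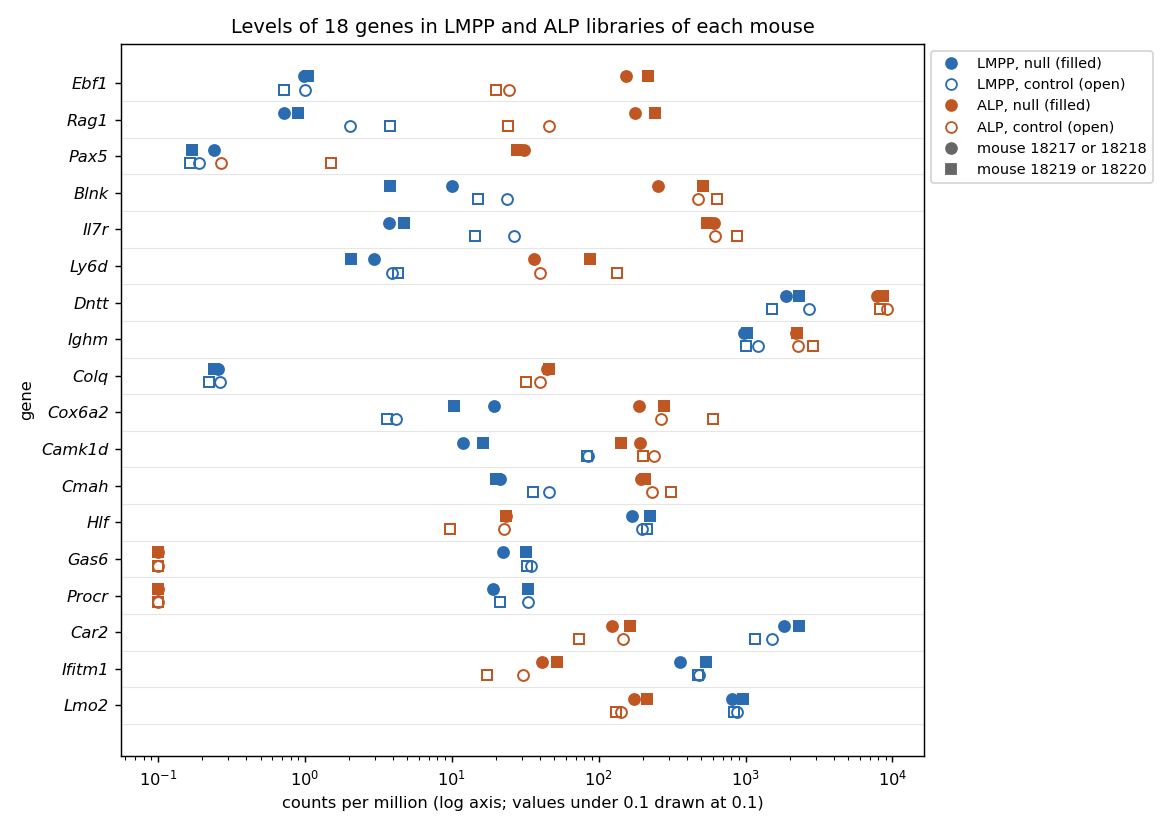
Levels of 18 called genes in CPM on a log axis, 1 symbol per library, with null libraries filled, control libraries open, LMPPs blue and ALPs orange, and circles and squares for the 2 mice of a genotype. Filled orange and filled blue symbols do not overlap for any of the genes drawn, and Ebf1, Rag1 and Pax5 show null ALPs to the right of control ALPs.

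The genes that fell were led by Gas6 and Procr. Gas6, a ligand of the TAM receptor kinases, was at 22.3 and 32.1 CPM in null LMPPs and at 0.0571 and 0.0479 CPM in null ALPs, where 6 and 3 reads were counted (log2 fold change -8.97 ± 0.74, adjusted p = 0.00373 in edgeR). Procr, the protein C receptor and a marker of stem cells, was at 19.2 and 33.2 CPM and then at 0.0666 and 0.0959 CPM, or 7 and 6 reads (log2 fold change -8.32 ± 1.15, block adjusted p = 0.106). Both were carried by a minority of LMPPs, with reads in 13.3% and 14.9% of these cells for each gene. Hlf, a bZIP factor of stem cells, fell from 168 and 224 CPM to 23.4 and 23.5 CPM (log2 fold change -3.06 ± 0.41, block adjusted p = 0.111). Its share of positive cells was 77.8% and 68.1% in LMPPs and 26.6% and 21.4% in ALPs. Lmo2, an adaptor of stem and erythroid transcription complexes, fell from 804 and 963 CPM to 173 and 214 CPM (log2 fold change -2.19 ± 0.20, adjusted p = 0.00451 in edgeR).

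Car2, a carbonic anhydrase of erythroid and early progenitors, fell from 1842 and 2303 CPM to 123 and 164 CPM (log2 fold change -3.85 ± 0.48, block adjusted p = 0.0577). The interferon-inducible membrane genes Ifitm1 and Ifitm3 fell as well. Ifitm1 went from 356 and 537 CPM to 41.4 and 51.7 CPM (log2 fold change -3.26 ± 0.35), and Ifitm3 from 604 and 619 CPM to 221 and 215 CPM (log2 fold change -1.49 ± 0.17, block adjusted p = 0.0569). Wfdc17 went from 142 and 290 CPM to 16.9 and 10.5 CPM (block adjusted p = 0.0884). Keratin gene Krt18 fell by 2.75 on the log2 scale and the annexin gene Anxa1 by 1.71, both with a block adjusted p of 0.118. Dapp1, an adaptor downstream of phosphoinositide 3-kinase, fell by 1.78 and was still called with the block. For all 11 fallen genes, the share of positive cells at equal depth was lower in both ALP libraries than in both LMPP libraries. For 30 of the 31 risen genes it was higher. Among all genes tested this was so for 10.4% and 23.5%, and the smallest p that 2 mice against 2 allow for a share is 0.33 (two-sided exact permutation test).

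In the stem and multipotent list 23 of 27 tested members were lower and 4 higher in null ALPs. Of these, 5 fell, 0 rose, and the median log2 change was -1.39. The 5 that fell were Hlf, Lmo2, Procr, Ifitm1 and Ifitm3. The list also holds Kit and Ly6a, whose surface products both gates selected, with log2 changes of -1.79 and -0.35 and no call. Cd34, the sialomucin of early progenitors, was at 1513 and 1567 CPM and then at 589 and 583 CPM (adjusted p = 0.238), and Meis1, a homeobox factor of stem cells, at 179 and 394 CPM and then at 138 and 155 CPM (adjusted p = 0.61). Per cell, reads were found for 14.3 and 14.3 of the 28 listed genes in null LMPPs and for 10.8 and 9.64 in null ALPs. The erythroid and megakaryocyte list had 14 of 16 tested members lower, with a median of -2.40 and Car2 as the 1 member that fell. Nfe2, an erythroid and platelet factor, was at 309 and 388 CPM and then at 62.3 and 109 CPM (adjusted p = 0.0683).

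**Figure D4:**
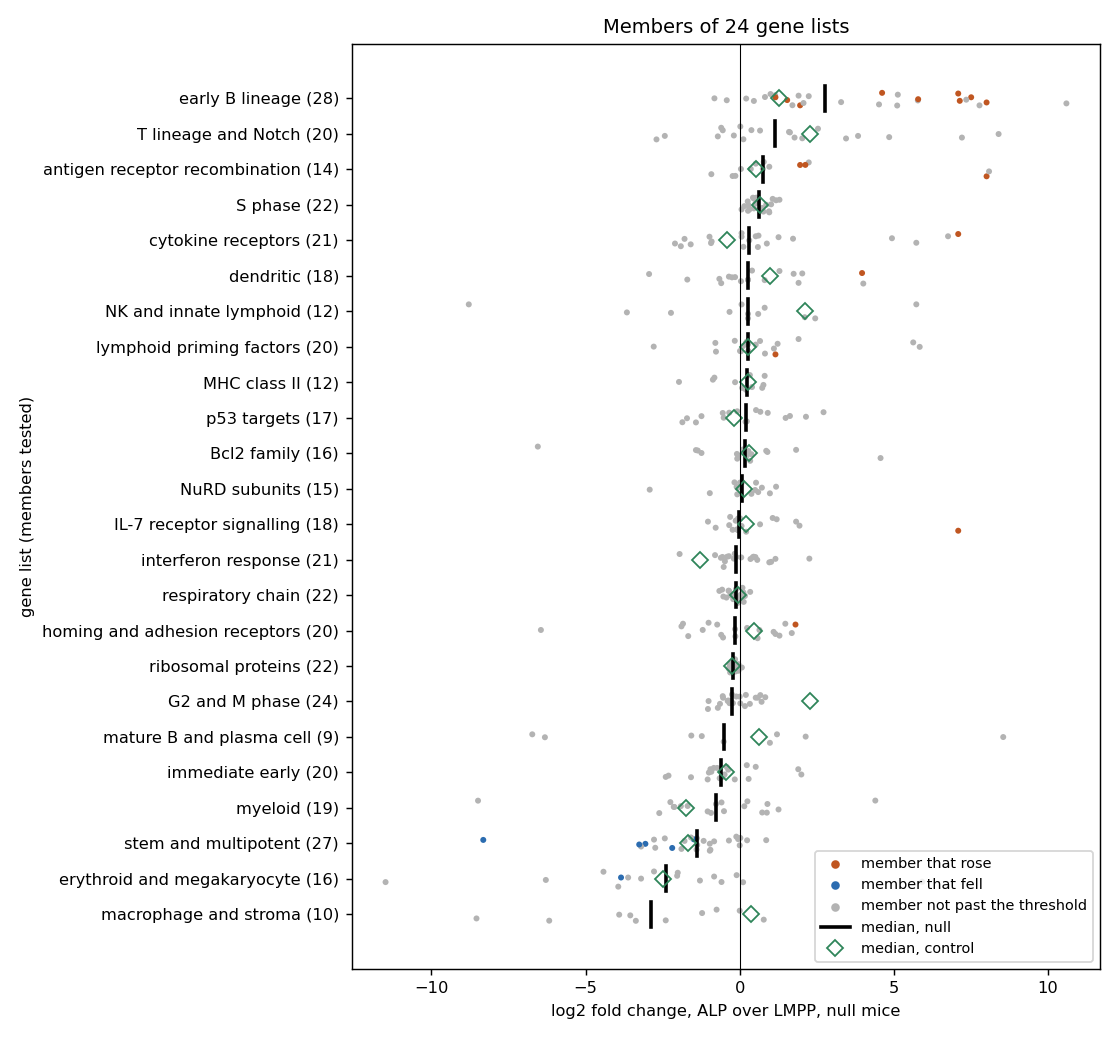
Each dot is a tested member of 1 of 24 gene lists, placed by its log2 fold change of ALP over LMPP in null mice, with orange for members that rose, blue for those that fell and grey for the rest. Black bars are list medians in null mice and open diamonds the medians in control mice; the early B lineage list has the highest median (2.77) and its members spread from -0.82 to 10.6.

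The other lists held few calls. Among lymphoid priming factors, which prepare progenitors for lymphoid fates, 16 of 20 were higher and only Foxp1 rose; Satb1 (adjusted p = 0.0726) and Ikzf1 (0.131) had higher levels in both null ALP libraries without passing. In the IL-7 receptor signalling list only Il7r rose, with 9 of 18 members higher, 9 lower and a median of -0.02. Bcl2, a survival gene downstream of that receptor, was at 50.6 and 25.5 CPM and then at 169 and 103 CPM (adjusted p = 0.166). The T lineage and Notch list had 14 of 20 higher and a median of 1.13 with 0 calls; the Notch target Hes1 came closest, at 1.1 and 2.24 CPM and then at 26.6 and 69.8 CPM (adjusted p = 0.0537). Il18r1, a cytokine receptor gene of the NK and innate lymphoid list, went from 0.0943 and 0.413 CPM to 11.8 and 14.9 CPM (adjusted p = 0.0638). Among cytokine receptors 14 of 21 were higher, Il7r rose, and Gfra1, a receptor for GDNF, was at 2.84 and 0.946 CPM and then at 70.6 and 45.8 CPM (adjusted p = 0.076). The dendritic list had 11 of 18 higher and 1 that rose, Cox6a2, with Siglech, a plasmacytoid dendritic cell receptor, at 0.647 and 3.56 CPM and then at 21.8 and 45.3 CPM (adjusted p = 0.232). The MHC class II list had 8 of 12 higher and 0 calls. In the myeloid list 12 of 19 were lower, with a median of -0.77 and 0 calls. Lyz2, the lysozyme of myeloid cells, was at 253 and 460 CPM and then at 58.3 and 104 CPM (adjusted p = 0.134), and Mpo, the myeloperoxidase gene, at 881 and 1357 CPM and then at 847 and 729 CPM (log2 change -0.51, adjusted p = 0.834).

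Markers of several cell types that the gates exclude were near 0 in null libraries. Ms4a1 (mature B cells), Cd3e (T cells) and Ly6g (granulocytes) were each below 0.1 CPM in all 4. The summed level of the mature B and plasma cell list was 202 and 238 CPM in LMPPs and 254 and 254 CPM in ALPs, and that of the macrophage and stroma list 217 and 235 CPM against 213 and 281 CPM. The fitted median log2 change of the macrophage and stroma list was -2.88, with 0 calls among 10 tested members, but the medians per mouse were -0.80 and 0.0. For 1 member both ALP libraries lay below both LMPP libraries, and for 1 member they lay above. Among all 19903 genes tested, 3586 lay below and 3938 above. The erythroid and megakaryocyte list summed to 2765 and 3669 CPM in LMPPs and to 371 and 473 CPM in ALPs, and Car2 made up 1842 and 2303 CPM of the first pair.

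Cell cycle genes differed between the null mice. All 22 tested members of the S phase list were higher in null ALPs, with a median of 0.61 and 0 calls. The change was carried by mouse 18219. Median changes were 0.06 in mouse 18217 and 1.37 in mouse 18219, and the LMPPs of mouse 18217 had a summed S phase level of 4867 CPM against 2296 CPM in the other null mouse. The G2 and M phase list had 9 of 24 members higher and 15 lower in null mice, with a median of -0.24. In control mice all 24 were higher, with a median of 2.28. Median changes per mouse were -0.34 and 0.08 in null mice and 2.44 and 1.74 in control mice. None of the 24 passed in either step, and no member passed in the difference of the steps; the difference between the list medians was not tested. The spindle gene Tpx2 had the smallest p of the list, at 71.4 and 68.6 CPM in null LMPPs, 59.3 and 30.6 CPM in null ALPs, 22.5 and 11.9 CPM in control LMPPs and 124 and 59.4 CPM in control ALPs. Whether cycling cells have a part in the changes of other genes was not tested.

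The remaining lists had 0 calls in null mice. The interferon response list had 10 of 21 members higher and 11 lower, with a median of -0.11, whereas in control mice 1 was higher and 20 lower, with a median of -1.28. Median changes per mouse were 0.23 and -0.11 in null mice and -2.20 and 0.0 in control mice, so the control value came from mouse 18218. Ribosomal protein genes were lower in 21 of 22 cases by a small amount, with a median of -0.21. The 15 genes of NuRD subunits, Mbd3 among them, had a median of 0.07. Medians were 0.17 in the Bcl2 family, 0.19 in p53 targets, -0.12 in the respiratory chain and -0.60 in the immediate early genes. The immediate early medians had opposite signs in the null mice, 0.29 in mouse 18217 and -0.83 in mouse 18219.

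The same step in control mice is the closest comparison. There 35 genes rose (0.176%) and 19 fell (0.0955%). Of the 42 genes called in null mice, 33 were called in the same direction in control mice (23 rose and 10 fell), which is 78.6% of the null calls and 61.1% of the control calls. All 42 had the same sign in both. A test of the difference between the 2 steps called 0 of 19903 genes (0.0%) in edgeR, with a smallest adjusted p of 0.62. At an unadjusted p under 0.05 there were 1044 genes, where 995 would be expected by chance. DESeq2 called 239 genes, limma-voom 0, and edgeR without the filter on low counts 3, which were Ebf1, Rag1 and Atp8b4.

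Ebf1 and Rag1 had the smallest p-values for that difference, and neither passed after adjustment. Ebf1 rose in control mice from 1.01 and 0.724 CPM to 24.7 and 19.9 CPM, and the null step was larger by 2.82 ± 0.36 on the log2 scale (p = 3.12e-05 in edgeR, adjusted p = 0.62). Rag1 went from 2.02 and 3.78 CPM to 46.1 and 24.2 CPM in control mice, and the null step was larger by 4.42 ± 0.63 (p = 8.32e-05 in edgeR, adjusted p = 0.828). The null and control values did not overlap in ALPs for either gene. Both genes were picked by p from these same libraries, so this and their shares below add no support for a difference. By share of cells at equal depth, Ebf1 was read in 67.4% ± 5.75 (SD, n = 2 mice) of null ALPs and 28.1% ± 7.98 of control ALPs, and Rag1 in 73.1% ± 2.3 and 31.4% ± 9.08. Cd79a was read in 41.8% and 64.3% of null ALPs and in 17.6% and 10.0% of control ALPs, and its difference of steps did not pass (adjusted p = 0.951 in edgeR). Pax5 was at 0.267 and 1.51 CPM in control ALPs, and its null step was larger by 4.84 ± 1.06 (adjusted p = 0.899 in edgeR).

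**Figure D5:**
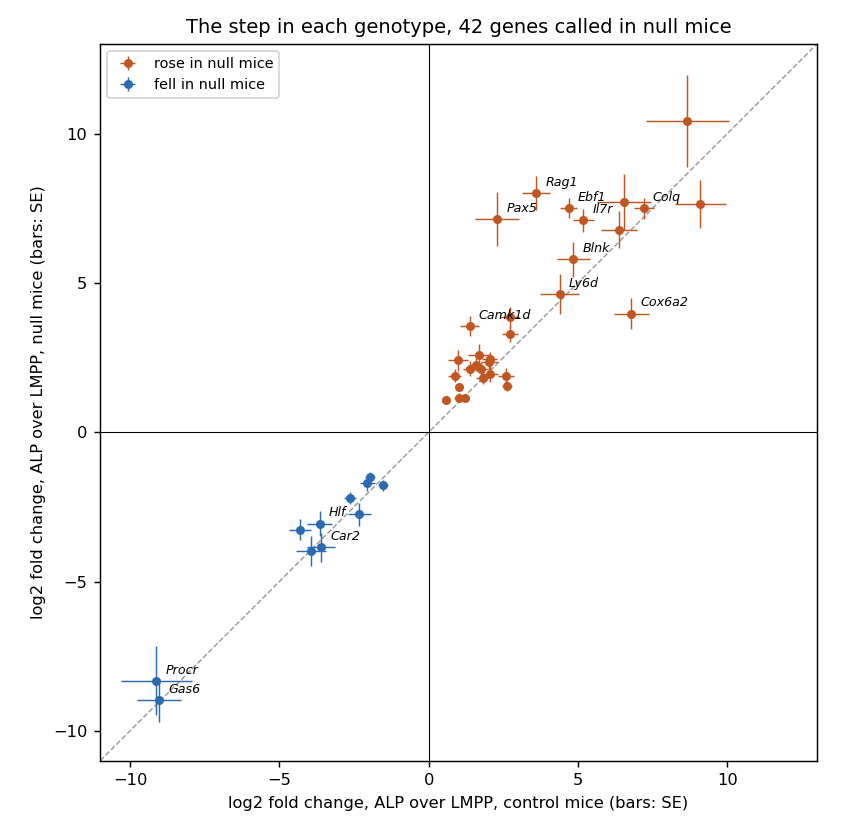
Each point is 1 of the 42 genes called in null mice, with its log2 fold change of ALP over LMPP in control mice on the horizontal axis and in null mice on the vertical axis, bars of 1 SE and a dashed line of equal change. All points lie in the upper right or the lower left, and Rag1, Ebf1 and Pax5 lie farthest above the line among the labelled genes.

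Atp8b4, Camk1d, Aim2 and Cnn3 followed by p in the difference of steps, each with an adjusted p of 0.899 in edgeR. Atp8b4, a phospholipid flippase gene, was at 2.55 and 0.757 CPM in null LMPPs and 31.9 and 65.6 CPM in null ALPs. In control mice it was at 72.9 and 119 CPM and then at 85.1 and 73.2 CPM, so the control libraries were high in both populations. Camk1d was likewise lower in null LMPPs (11.9 and 16.3 CPM) than in control LMPPs (84.7 and 83.7 CPM), while its levels in ALPs lay closer (190 and 142 CPM, 238 and 199 CPM). Aim2, a sensor of cytosolic DNA, was at 12.5 and 14.7 CPM and then at 37.4 and 28.3 CPM in null mice, and at 51.0 and 40.6 CPM and then at 18.2 and 8.86 CPM in control mice. Cnn3 rose in both genotypes, by 1.54 ± 0.16 in null mice and by 2.61 ± 0.17 in control mice on the log2 scale. Cox6a2 and Gfra1 had larger log2 changes in control than in null mice, 6.79 against 3.97 and 8.17 against 4.94, and neither passed the test of the difference.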

How the data were processed

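Single marrow progenitors were sorted into wells, and full-length cDNA was made by the method of Picelli and colleagues, as the labels' protocols describe. What the authors deposited is a table of read counts, 1 column per cell, with no molecular identifiers. Per the submitters' processing notes, reads were aligned with GSNAP to mm10 and HTSeq 0.5.3p3 was used. Neither a strand setting nor an annotation release is stated there. Of all entries, 43.2% were gene counts, and spike-ins (6.13%) and HTSeq summary entries (unaligned 33.0%, no feature 11.6%, ambiguous 6.08%) were left out of the fits. Symbols and coordinates came from a GENCODE annotation of GRCm38, the assembly of mm10, for 45143 of 46078 genes.

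Cells were kept with at least 50000 nuclear gene counts and 1000 genes, at most 20% mitochondrial and at most 50% spike-in counts, and summed per mouse and population into 12 libraries. No doublet caller was run, since cells were sorted singly. No cells had identical counts (0 pairs). The 6 groups of population and genotype were fitted together with edgeR 4.0.16 (R 4.3.3, filterByExpr, TMM, quasi-likelihood test, 6 residual degrees of freedom), and the common coefficient of variation was 86.9%. Standard errors are the change divided by the root of the F statistic. CPM use TMM-scaled library sizes. With 2 mice per group, p-values rest on a spread between mice estimated over all 12 libraries and shared across genes. They do not measure the spread of the null mice alone. The fit was tested on simulated data.

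Null LMPPs and ALPs come from the same mice, as their titles state, so the mouse pairs them. Deviations from group means correlated across genes by 0.0403 in null and 0.0495 in control mice. The fit with the mouse as a block, limma 3.58.1, DESeq2 1.42.0 and other cell and gene filters were alternatives. For shares, each cell was thinned to 50000 counts, and mice were compared by exact permutation (smallest p 0.33). The lack of molecular identifiers means that shares cover reads and not molecules.

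The step, the gene lists and the rules were chosen with earlier results of these data known. Named genes are up to 12 per direction with the largest change, called, without overlap and with a group mean of 20 CPM or more, up to 3 members per list with the smallest p, the gate genes, Mbd3 and 6 genes for the difference of steps. Tfrc, Tedc1, Tpm4, Clec12a, Tifa, Crip1, Tmem229b, Cd93, Ighm, Adgrg3, Pdcd1, Stum, Gm12158 and Gm11579 were named after their values were seen. So were the list members Cd79a, Cd79b, Cd24a, Erg, Ciita, Rag2, Bach2, Vpreb3, Cd34, Meis1 and Mpo.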

Additional observations from a re-analysis of the deposited data

How the results depend on the processing

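With edgeR on the 12 libraries 31 genes rose, 11 fell and 0 differed in their step between genotypes. The counts were 128, 37 and 3 without the filter on low counts, and 615, 311 and 239 with DESeq2. With limma-voom 11 rose and 16 fell, and 19 of the 42 calls held. With libraries of LMPPs and ALPs of both genotypes alone 17 rose, and 24 of the 42 calls held. The 4 null libraries alone gave 1 that rose and 0 that fell. The mouse as a replicate block gave 17 and 5, the block with cells thinned to equal counts 172 and 66, and thinning alone 168 and 52. Shares of cells (limma) gave 59 and 39, and 20 of the 42 calls held. Leaving out 1 mouse at a time gave 0 to 7 that rose and 0 that fell, with each lone library assumed to vary like the other groups. Without the ALP libraries of mice 18219 and 18220, which lost many cells (an alternative chosen after seeing the data), 7 rose and 0 fell. The cause of these shifts was not tested. DESeq2's size factors and the looser and stricter cell limits kept all 42 calls. All 42 genes kept their direction under each of the 17 alternatives.

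Among named genes without a call, Flt3 turned to -0.02 with thinning, with and without the block, Col1a2 to 0.05 with all cells, and on the arcsine scale of shares Tpx2 to 0.04, Ccnb2 to 0.02, Atp5a1 to 0.02 and the difference of steps of Cnn3 to 0.14. Leaving out 1 mouse moved Mbd3 between -6.12 and 3.93, Cxcl12 between -8.81 and 2.05, Col1a2 between -5.42 and 0.02, and Ly6a between -1.53 and 0.14. Over the 16 alternatives on summed counts the median of the early B lineage list stayed between 1.97 and 3.52 and that of the stem and multipotent list between -1.55 and -1.23, while that of the G2 and M phase list ran from -0.33 to 0.28, that of the immediate early list from -0.97 to 0.37 and that of the macrophage and stroma list from -3.38 to 0.0. With 2 mice a group, a common variation of 86.9% and ALPs of mouse 18219 at 42 of 84 cells, small changes were not detectable at this depth.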

Other observations

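Some genes beside Ighm and Pax5 were also higher in null ALPs. These genes were picked after their values were seen, and no cause was tested. Crip2, Crip1, Tedc1 and Tmem121 lie in a row on chromosome 12 between 113140236 and 113189523 (GRCm38), on the constant-region side of the immunoglobulin heavy chain locus, where Ighm lies at 113418558 to 113422730. Crip1, which encodes a LIM domain protein, rose from 383 and 252 CPM in null LMPPs to 1008 and 1356 CPM in null ALPs (log2 fold change 1.90 ± 0.22). Tedc1, a gene of the tubulin delta and epsilon complex, rose from 30.4 and 17.7 CPM to 130 and 127 CPM (log2 fold change 2.41 ± 0.35). Tmem121 was at 9.51 and 6.64 CPM and then at 52.7 and 87.6 CPM (adjusted p = 0.0537 in edgeR), and Crip2 at 0.0539 and 0.155 CPM and then at 14.7 and 36.0 CPM (adjusted p = 0.218 in edgeR). At equal depth Crip2 was read in 11.4% and 16.7% of null ALPs, and a single ALP of mouse 18219 held 52.2% of its library's Crip2 reads. On the far side of Crip2, the next genes tested were Mta1, Tex22 and Pacs2, with log2 changes of 0.53, -2.70 and -0.29 that did not pass. Tex22 had at most 0.0172 CPM in null libraries. In control mice the changes of Crip2, Crip1, Tedc1 and Tmem121 were 0.47, 0.87, 0.98 and 1.57. None of the 4 genes passed in the difference of the steps.

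Zcchc7, the next protein-coding gene tested beyond the start of Pax5 on chromosome 4, did not pass. It was at 45.5 and 63.4 CPM in null LMPPs and at 207 and 190 CPM in null ALPs, with no overlap (log2 fold change 1.87 ± 0.31, adjusted p = 0.0732 in edgeR). Its change in control mice was 0.48, with 128 and 66.7 CPM and then 138 and 135 CPM. The other neighbours did not pass in null mice either. Melk, on the other side of Pax5, changed by -0.14, and beyond Zcchc7 the values were 0.49 for Grhpr, 0.11 for Zbtb5, 0.51 for Polr1e, -0.34 for Fbxo10 and -0.09 for Tomm5.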
